A study of Rattus norvegicus with 12 samples.

Results

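The platelet-derived growth factor (PDGF) genes and a set of surface markers carried by mesenchymal cells were followed in cultured rat Sertoli cells. The genes were 2 PDGF receptors (Pdgfra, Pdgfrb), 3 ligands (Pdgfa, Pdgfb, Pdgfc) and the surface proteins Thy1, Cd44, Eng and Nt5e. Members were the gene array probe sets of the annotation's main category that carried exactly 1 of these 9 symbols. Of the 9 genes, 8 had such a probe set, 1 each, among 18304 genes with a main probe set of 1 symbol and 27342 main probe sets in all. Eng had none, and its only other probe set is described apart.

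Testes of 9-day-old rats were digested, and the cells were plated in DMEM/F12 with 10% fetal bovine serum and kept for 24 h. Controls then received no MBP, the solvent per the series' design, and treated cultures received 0.1 mM MBP, each for 24 h before RNA extraction. MBP is not spelled out in the labels, which also give no strain and do not say whether cells of several animals were pooled. There were 3 control and 3 MBP gene arrays, numbered 1 to 3 in each group. Nothing in the labels ties a number to an animal, a cell isolation or a dish, and the p-values therefore reflect only differences among these arrays, which could be technical.

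PDGFs are secreted dimers that act through 2 receptor tyrosine kinases. The alpha receptor binds the A, B and C chains, and the beta receptor binds mainly the B chain. In the testis the ligands are known from tubule cells and the receptors from the interstitial and peritubular cells around the tubule, where, in mice, the A chain is needed for adult Leydig cells to form. Thy1 (CD90), Eng (CD105) and Nt5e (CD73) are the surface proteins by which cultured mesenchymal stromal cells are usually defined, and CD44 is the main hyaluronan receptor of such cells.

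Median log2 signals of the main probe sets were 3.84 to 3.89 per array. Background was set as the 95th percentile of the intron control probe sets of each array, at log2 signals of 5.67 to 6.20. It was 6.20 and 6.18 on control and MBP array 3 and 5.67 to 5.88 on the others. The 95th percentile of the antigenomic controls was instead lowest on number 3, at 5.84 on both arrays against 6.09 to 6.30. Background was exceeded by 7568 to 7757 main probe sets on the arrays of number 1, 7617 to 8178 of number 2 and 6647 to 6661 of number 3. The counts of number 3 were thus taken at a higher cutoff. Of the fixed Sertoli cell markers, 5 of 16 measured were above background on all 6 arrays, among them Wt1, Gata4, Fshr and Clu. The annotation of the Fshr probe set also lists glyceraldehyde-3-phosphate dehydrogenase transcripts, which leaves the source of its signal unsettled. Amh, Inha, Cldn11 and Dhh did not reach background on any of the 6. Of 13 measured peritubular myoid and fibroblast markers other than Pdgfra, Pdgfrb and Thy1, 11 were above background, among them Myh11, Cnn1, Tagln and Actg2. The counts were 2 of 9 for Leydig cells, 2 of 8 for pericytes, of which 1 is Pdgfrb itself, 0 of 9 for endothelial cells, 1 of 12 for macrophages and leukocytes, 0 of 7 for T cells and 1 of 13 for germ cells. In such bulk samples, fewer cells of a type and less RNA per cell cannot be told apart.

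All but 2 of the 8 genes had a measured level in every sample. Pdgfra, Pdgfrb, Pdgfa, Thy1, Cd44 and Nt5e were above background on all 6 arrays, Pdgfc on 1 array and Pdgfb on none, where 23.2% of all main probe sets were above background on all 6. A level is given per probe set and is not set against that of another gene, because probes differ in brightness.

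The upstream sequences of Nt5e, Cd44 and Pdgfra are shown because the first pair had nearly the same profile over the arrays and Pdgfra had another. Each covers 250 bases before to 50 bases after the gene's start in RefSeq on GRCr8, written 5′ to 3′ on the gene's strand. They lie at chr8:98150675-98150974 (plus strand), chr3:109699375-109699674 (minus strand) and chr14:33408467-33408766 (minus strand). Capitals mark matches, on either strand, to the GC box GGGCGG, the TATA box TATAAA, the AP-1 motif TGANTCA and the CCAAT box CCAAT.
Nt5e: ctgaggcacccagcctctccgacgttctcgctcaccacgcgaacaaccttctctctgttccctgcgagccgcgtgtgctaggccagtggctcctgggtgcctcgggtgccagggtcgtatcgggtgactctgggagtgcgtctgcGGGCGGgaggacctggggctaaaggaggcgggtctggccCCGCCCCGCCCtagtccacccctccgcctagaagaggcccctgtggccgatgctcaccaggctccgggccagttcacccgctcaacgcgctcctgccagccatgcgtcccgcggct
Cd44: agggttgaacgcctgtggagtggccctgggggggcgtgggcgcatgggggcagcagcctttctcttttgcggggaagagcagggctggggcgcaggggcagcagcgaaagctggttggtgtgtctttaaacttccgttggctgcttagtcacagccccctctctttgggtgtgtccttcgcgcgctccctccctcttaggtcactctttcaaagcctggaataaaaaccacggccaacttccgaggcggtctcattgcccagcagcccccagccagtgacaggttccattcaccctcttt
Pdgfra: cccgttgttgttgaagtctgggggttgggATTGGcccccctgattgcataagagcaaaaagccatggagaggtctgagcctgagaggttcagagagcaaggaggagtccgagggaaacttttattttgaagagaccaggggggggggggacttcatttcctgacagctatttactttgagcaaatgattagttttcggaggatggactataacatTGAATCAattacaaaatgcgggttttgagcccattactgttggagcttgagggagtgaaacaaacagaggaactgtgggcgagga
The Nt5e window held 3 GC box matches, the last 2 of which share a base, and its GC content was 69.3%. The Cd44 window, at 60.3% GC, held no match to any of the 4 motifs. The Pdgfra window, at 48.0% GC, held 1 CCAAT box and 1 AP-1 match. Over the 33469 windows of that length in the table, 33.1% held a GC box, 14.2% a TATA box, 7.3% an AP-1 match and 37.5% a CCAAT box, and the median GC content was 51.7%. The table held a window for 7 of the 9 genes, and 3 of these had a GC box, 0 a TATA box, 1 an AP-1 match and 2 a CCAAT box. A match is a description of these letters and no evidence of binding.

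The receptor genes were measured in all cultures. Pdgfra (probe set 10776459; chromosome 14, 35356435 to 35409311 on Rnor_5.0, minus strand) encodes the alpha receptor. Its log2 signals were 8.48, 8.93 and 8.59 in controls 1 to 3 and 8.55, 8.88 and 8.48 in MBP arrays 1 to 3. The arrays of number 2 were the highest in both groups, and the groups overlapped. The group means were 8.67 ± 0.23 (SD, n = 3) without and 8.63 ± 0.21 with MBP, a log2 difference of -0.032 (SE 0.158, 95% interval -0.42 to 0.36). Pdgfrb (probe set 10802040; chromosome 18, 55596758 to 55637692, plus strand), the beta receptor gene and a marker of pericytes and myoid cells, had log2 signals of 7.40, 7.80 and 7.69 without MBP and 7.42, 7.67 and 7.61 with it. Number 1 was the lowest in both groups. The means were 7.63 ± 0.21 and 7.57 ± 0.13, a difference of -0.062 (SE 0.124, 95% interval -0.37 to 0.25).

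Of the 3 ligand genes, only Pdgfa was above background on every array. Pdgfa (probe set 10757129; chromosome 12, 19727664 to 19748066, plus strand) encodes the A chain, which acts through the alpha receptor. Its log2 signals were 7.73, 7.82 and 7.97 without MBP and 7.79, 7.77 and 8.0 with it, with number 3 the highest in both groups. The means were 7.84 ± 0.12 and 7.85 ± 0.13, a difference of 0.013 (SE 0.093, 95% interval -0.22 to 0.24). Pdgfc (probe set 10816026; chromosome 2, 199362291 to 199537365, plus strand) encodes a chain that proteases activate outside the cell. Its log2 signals were 5.61, 5.82 and 5.72 without MBP and 5.54, 5.72 and 5.52 with it, and only control array 2 exceeded its background. The MBP array was the lower one in each pair of the same number, by 0.07, 0.10 and 0.20, yet the groups overlapped. Pdgfb (probe set 10905521; chromosome 7, 121205506 to 121223140, minus strand), the B chain gene, lay below background throughout, at 4.12, 4.55 and 4.55 without MBP and 4.01, 4.55 and 4.77 with it. No fold is given for Pdgfb or Pdgfc, because their levels are only bounded by background. Log2 differences shown for them, here and below, are of signals and are not measured changes.

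Among the surface markers, Cd44 and Nt5e spread most over the arrays. Nt5e (probe set 10912088; chromosome 8, 95464241 to 95508297, plus strand) encodes CD73, the enzyme that turns extracellular AMP into adenosine. Its log2 signals were 9.25, 9.61 and 8.61 without MBP and 9.40, 9.66 and 8.71 with it. Number 3 was the lowest and number 2 the highest in both groups, and each MBP array was the higher of its pair, by 0.15, 0.05 and 0.10. The means were 9.16 ± 0.51 (SD, n = 3) and 9.26 ± 0.49, a difference of 0.099 (SE 0.341, 95% interval -0.74 to 0.94). Cd44 (probe set 10847761; chromosome 3, 99339455 to 99426032, minus strand) had log2 signals of 8.97, 9.23 and 8.22 without MBP and 8.99, 9.17 and 8.29 with it. It had the same order of numbers as Nt5e in both groups. The means were 8.81 ± 0.53 and 8.82 ± 0.47, a difference of 0.012 (SE 0.339, 95% interval -0.82 to 0.85).

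Thy1 (probe set 10909407; chromosome 8, 46998623 to 47003437, plus strand) encodes CD90, a small protein anchored to the membrane by a lipid. Its log2 signals were 7.84, 7.32 and 7.28 without MBP and 7.72, 7.03 and 7.24 with it. Number 1 was the highest in both groups, and each MBP array was the lower of its pair, by 0.12, 0.28 and 0.03. The means were 7.48 ± 0.32 and 7.33 ± 0.35, a difference of -0.145 (SE 0.231, 95% interval -0.71 to 0.42). Eng encodes endoglin, a co-receptor for TGF-beta and BMP ligands. Its probe set (10940663) belongs to the annotation's unmapped category, so it is outside the rule and was not in the fit. That probe set was above background on all 6 arrays, at 8.43, 8.79 and 8.94 without MBP and 8.46, 8.69 and 8.82 with it. Its signal rose from number 1 to number 3 in both groups. The groups overlapped, with means of 8.72 ± 0.26 (SD, n = 3) and 8.65 ± 0.18.

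**Figure D1:**
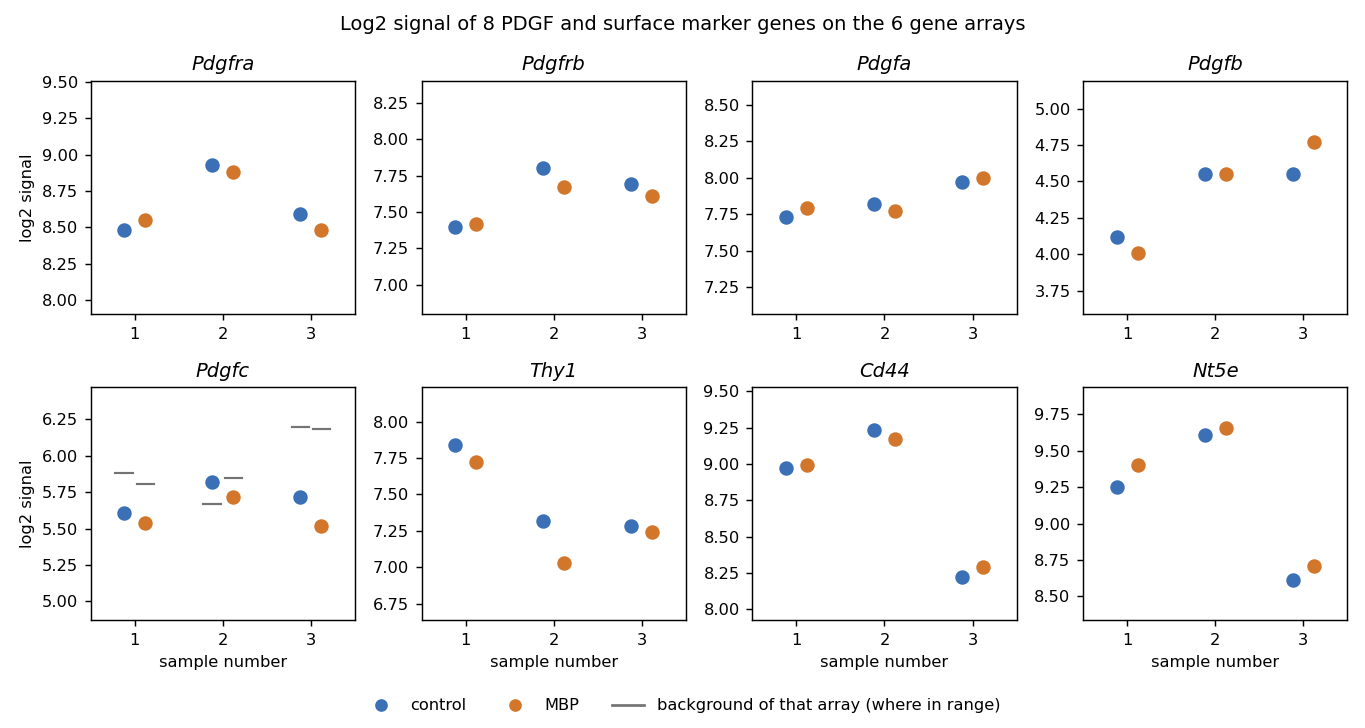
Log2 signal (y axis, a window of the same height in every panel) of 8 genes on the 6 gene arrays by sample number (x axis), 1 point per array, control in blue and MBP in orange; grey bars give the array's background where it falls in the window. For Cd44 and Nt5e, control and MBP points of one number lie close together, and number 3 is lowest in both groups. The widest pairs are number 2 of Thy1 (0.28 apart) and number 3 of Pdgfb (0.23) and of Pdgfc (0.20).

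No member passed the test of MBP against control. In limma's fit of all 27342 main probe sets, 0 of 8 members had an adjusted p under 0.05 (Benjamini-Hochberg; every adjusted p = 1), and the share called among all main probe sets was 0%. Unadjusted, 0 of 8 members had a p under 0.05, against 1.28% of all probe sets, and the smallest unadjusted limma p was 0.193, for Pdgfc. Of the 8 genes 4 were higher and 4 lower with MBP, with a median log2 difference of -0.010 against -0.0065 over all main probe sets. The difference was below 0 for 53.6% of all main probe sets and 68.6% of those above background. These member counts include Pdgfb and Pdgfc, whose levels are only bounded. Groups were free of overlap for 0 of 8, against 3.43% of all probe sets. The 3 pairs of same-numbered arrays moved one way for Pdgfc, Thy1 and Nt5e, so for 3 of 8 against 21.4% of all probe sets.

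Same-numbered arrays resembled each other, and taking the number as a block narrowed the intervals. With the block, 0 of 8 members passed either (limma, adjusted p = 0.865 to 0.971, background 0%), and 0 of 8 had an unadjusted p under 0.05, against 4.59% of all probe sets. The standard error fell by a factor of 6.68 for Nt5e, 6.28 for Cd44, 3.44 for Thy1, 2.67 for Pdgfra and 2.25 for Pdgfrb. The blocked 95% interval of the log2 difference was -0.03 to 0.23 for Nt5e, -0.13 to 0.15 for Cd44 and -0.32 to 0.03 for Thy1. It was -0.19 to 0.12 for Pdgfra, -0.21 to 0.08 for Pdgfrb and -0.12 to 0.15 for Pdgfa. As folds these bounds run from 0.80 for Thy1 to 1.17 for Nt5e. Smaller differences are not shown to be absent.

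**Figure D2:**
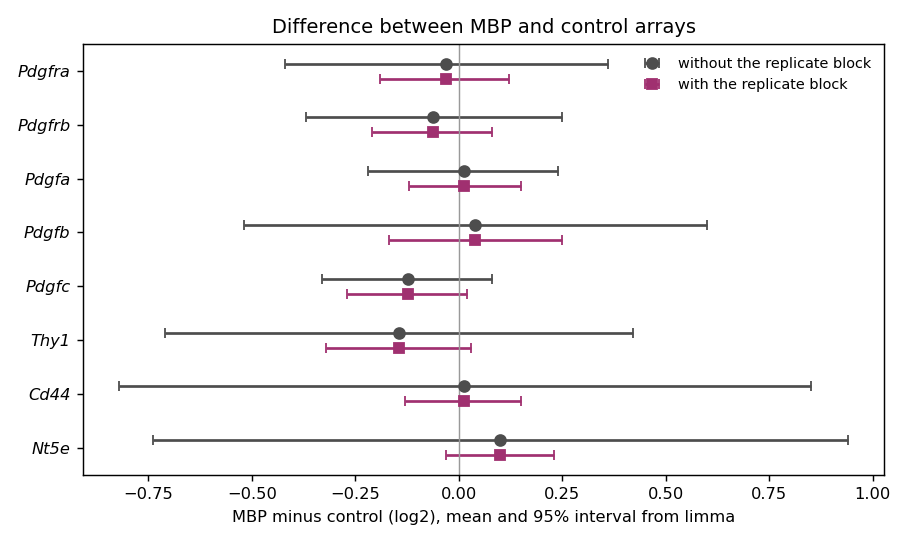
Difference between MBP and control arrays on the log2 scale (x axis) for 8 genes (y axis), with the 95% interval from limma without the replicate block (grey circles) and with it (purple squares), n = 3 per group. Every interval includes 0, and those of Cd44 and Nt5e are the ones that narrow most with the block. Pdgfb was above background on no array and Pdgfc on 1, so their differences are of signals and not of measured levels.

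The sample numbers differed for Nt5e, Cd44 and Thy1, and the test also called Pdgfb, which lay below background. An F-test of the number in limma's fit with group and number, adjusted over all main probe sets, called Nt5e (adjusted p = 0.00881), Cd44 (adjusted p = 0.00936), Thy1 (adjusted p = 0.0303) and Pdgfb (adjusted p = 0.046). The share called among all main probe sets was 9.62%, and 24.1% among the 6341 above background on all 6 arrays, where 3 of the 6 members were called. Pdgfra (adjusted p = 0.0534), Pdgfrb (0.081), Pdgfa (0.159) and Pdgfc (0.236) did not pass. Both arrays of 1 number lay outside the range of the other 4 for 7 of 8 members, all but Pdgfc, but this also held for 51.6% of all probe sets and 84.3% of those above background. Among the 6 members above background it held for 6, a share near that of other genes above background. By direction, number 3 was the lowest for Nt5e and Cd44 (15.5% of all probe sets), number 2 the highest for these and Pdgfra (11.4%), number 1 the lowest for Pdgfrb and Pdgfb (9.79%), number 1 the highest for Thy1 (9.55%) and number 3 the highest for Pdgfa (13.8%).

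Nt5e and Cd44 were lower in number 3 than in both other numbers. Nt5e differed by a log2 of -0.98 (SE 0.06, 95% interval -1.14 to -0.82) between numbers 3 and 2, a 1.97-fold lower signal, and by -0.67 (SE 0.06) between numbers 3 and 1. Cd44 differed by -0.95 (SE 0.07, 95% interval -1.12 to -0.78), or 1.93-fold, and by -0.72 (SE 0.07). Of all main probe sets, 98.4% had a difference between number 3 and the mean of the others that was smaller in size than that of Nt5e, and 98.5% one smaller than that of Cd44. Thy1 had another pattern, with log2 differences of -0.61 (SE 0.08) between numbers 2 and 1 and -0.52 (SE 0.08) between numbers 3 and 1. Pdgfra was higher in number 2 than in number 1 by 0.39 (SE 0.07, 95% interval 0.20 to 0.58). The call of Pdgfb concerns signals below background on all 6 arrays and is no measured change, and its control array 2 and MBP array 2 held the same value to all deposited digits. Such repeats occurred in 45.4% of main probe sets, of which 1.85% were called, against 16.1% of those with 6 distinct values.

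Each of these calls rests on all 6 arrays and on the probe sets tested with it. Among probe sets above background alone, 6 of 6 members and 63.9% of probe sets were called. Leaving out any 1 array, which leaves a single residual degree of freedom, gave 0 of 8 members and 0% of all probe sets called in limma, with 5 or 6 of 8 members at an unadjusted p under 0.05. Leaving out both arrays of number 1, 2 or 3 also gave 0 of 8 and 0%, with 3, 6 and 7 members at an unadjusted p under 0.05.

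The genes of most like profile were sought for Nt5e, Cd44 and Thy1, the members above background with a range of at least 0.5 log2 over the 6 arrays. Likeness is the root mean square difference between 2 centred log2 profiles over the 6 arrays, among 5210 other probe sets above background. Nearest to Nt5e were the secreted phospholipase gene Pla2g2a (0.048), the glucocorticoid receptor gene Nr3c1 (0.059) and Cd44 itself (0.061). Nearest to Cd44 were Adora2b (0.031), which encodes a receptor for the adenosine that CD73 makes, Nr3c1 (0.038) and the Wnt receptor gene Fzd1 (0.047). Nearest to Thy1 were 3 genes of mitosis, the kinetochore and spindle genes Knstrn (0.054) and Nuf2 (0.058) and the cyclin gene Ccnb1 (0.070). By the same measure Pdgfra and Pdgfrb were 0.124 apart, and Thy1 was 0.455 from Cd44 and 0.488 from Nt5e. The measure is smaller for profiles of small range, and Pdgfra and Pdgfrb ranged over only 0.45 and 0.40. Number 2 was the highest for Pdgfra and number 1 the lowest for Pdgfrb, so 0.124 does not show a shared pattern. The same 6 arrays underlie every profile, so these values are a description.

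**Figure D3:**
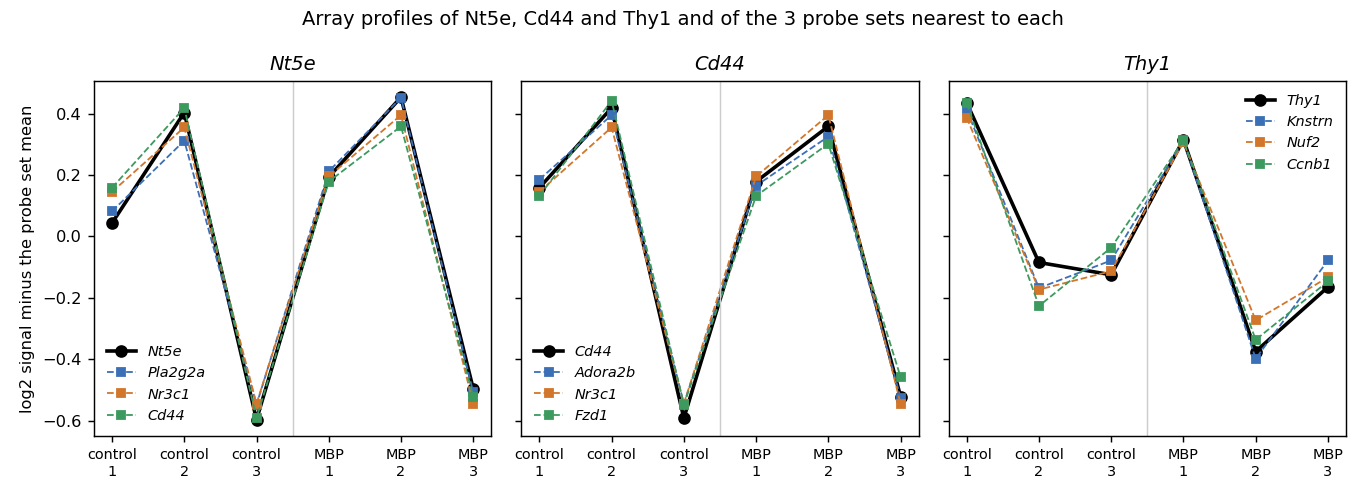
Log2 signal minus the probe set's mean (y axis) on the 3 control and 3 MBP arrays (x axis) for Nt5e, Cd44 and Thy1 (black) and for the 3 probe sets nearest to each (coloured). Nt5e and Cd44 dip on the arrays of number 3, and Thy1 peaks on those of number 1, in both groups.

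Genes around the members were read from 7 lists, chosen with earlier results of these data known. A share called in a list may therefore reflect that choice. Of their 127 measured genes, 76 were above background on all 6 arrays, and 0 passed the MBP test in limma without or with the block (smallest adjusted p = 1 and 0.865). Their numbers with an unadjusted p under 0.05 were 1 and 4. By sample number, 39 of the 127 passed, or 30.7%, against 9.62% of all main probe sets. Of the 76 above background 23 passed, or 30.3%, against 24.1% of all probe sets above background. The difference with MBP was below 0 for 53.6% of all main probe sets and for 68.6% of those above background, where its median was -0.0303, and the directions in each list are to be read against these.

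Of 10 other PDGF ligand, processing and co-receptor genes, 6 were higher and 4 lower with MBP (median 0.024). The ligand gene Pdgfd, whose protein acts on the beta receptor, lay below background on every array. Those of smallest p were Vegfa, a growth factor of the same superfamily, at mean log2 signals of 8.70 without MBP and 8.78 with it, and Sparc, a matrix protein that binds PDGF, at 12.59 and 12.64. The number test passed for 3 of 10 genes (background 9.62%) and for 1 of the 5 above background (24.1%). Among them were the protease gene Furin, with means of 7.94, 8.28 and 7.88 in numbers 1, 2 and 3, and Pcsk5, below background at 3.99, 3.74 and 4.60. The third was Pdgfd, at 4.35, 4.25 and 3.85. Of 37 genes of PDGF receptor signalling, 28 were above background, and 11 were higher and 26 lower with MBP (median -0.023). The kinase Akt1 stood at 8.96 without MBP and 8.85 with it. The number test passed for 3 of 37 (background 9.62%), among them the kinase gene Yes1 (7.82, 7.38 and 8.12 in numbers 1 to 3). Of the 28 above background 1 passed, against 24.1% of all such probe sets.

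Of 19 other surface markers of mesenchymal stromal cells, 10 were above background, and 7 were higher and 12 lower with MBP (median -0.019). The 2 of smallest p were Vcam1, at 3.46 and 3.39 and below background, and the tetraspanin gene Cd63, at 9.81 and 9.75. By sample number 14 of 19 passed (background 9.62%), and 8 of the 10 above background (24.1%). Both arrays of number 3 were the highest for 10 of 19, against 13.8% of all probe sets, and for 7 of the 10 above background, against 26.3% of such probe sets. The proteoglycan gene Cspg4 (NG2) had means of 5.31, 5.24 and 6.88 in numbers 1, 2 and 3 and was above background on 2 arrays. Cd200, an immune regulator, had 5.40, 6.18 and 7.81 and was above background on 4. Number 3 was the lowest for Nt5e and Cd44, and in this list also for Cd63 (9.85, 9.96 and 9.54 in numbers 1 to 3), which did not pass, and for Cd9 (6.66, 6.43 and 5.92), a tetraspanin gene named after its values were seen, which did. Cd9 was above background on 4 arrays and below it on both arrays of number 3, where its level is only bounded. There it read 5.98 and 5.87, under the cutoffs of 6.20 and 6.18. Both values were over the 95th percentile of the antigenomic controls of those arrays (5.84), so this loss depends on the controls used. Pdgfra and Pdgfrb had a difference between number 3 and the others of -0.17 and 0.08. Of 7 surface markers that such stromal cells are held to lack, 6 were below background on every array, including Ptprc (CD45) and Cd34. The exception was Cd14, at 7.78 in both groups, with 7.90, 8.01 and 7.43 in numbers 1 to 3. The test of MBP gave its smallest p in this list for Cd68, at 3.48 and 3.29, and Cd34, at 3.19 and 3.37, all below background.

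Of 20 partners of endoglin and receptors of TGF-beta and BMP, 16 were above background, and 10 were higher and 10 lower with MBP (median -0.005). Acvrl1, the endothelial type I receptor, was at 6.76 without MBP and 6.60 with it, and Bmp10 at 2.43 and 2.58, below background. The number test passed for 7 of 20 (background 9.62%), all among the 16 above background (24.1%). Of these 7, 5 had number 3 highest, a share not computed over all passed probe sets. Passed or not, both arrays of number 3 were the highest for 9 of 20, against 13.8% of all probe sets. Above background this held for 8 of 16, against 26.3% of such probe sets. The ligand genes Tgfb3 (6.20, 6.35 and 9.12 in numbers 1 to 3) and Tgfb2 (7.98, 7.71 and 9.36) had the smallest p.

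Of 15 hyaluronan and CD44 partner genes, 9 were above background, and 10 were higher and 5 lower with MBP (median 0.021). The hyaluronan synthase gene Has1 was at 2.84 and 3.04, below background, and the sheddase gene Adam10 at 7.27 and 7.39. The number test passed for 4 of 15 (background 9.62%), and for 2 of the 9 above background (24.1%). Has2, which makes the ligand of CD44, had means of 7.46, 7.74 and 6.73 in numbers 1 to 3, the same order of numbers as Cd44. Cemip, which degrades hyaluronan, lay below background at 3.87, 4.13 and 4.81. Of 19 genes of extracellular ATP and adenosine, 7 were above background, and 12 were higher and 7 lower with MBP (median 0.040). P2rx7, an ATP-gated channel gene, was at 2.72 and 2.96, below background, and the purine phosphorylase gene Pnp at 8.09 and 8.0. The number test passed for 6 of 19 (background 9.62%), and for 3 of the 7 above background (24.1%). The adenosine receptor gene Adora2a, above background on 2 arrays, had 5.43, 6.01 and 4.45 in numbers 1 to 3. Entpd1, whose product makes the AMP that CD73 uses, had 5.51, 5.42 and 6.67, above background on 2 arrays, so it was highest where Nt5e was lowest.

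Markers of myoid cells and fibroblasts also moved with the sample number. Of the 13 myoid and fibroblast markers that are no members, 11 passed the number test (background 9.62%). Among those that passed, number 3 was highest for 8 and lowest for 2, a split not computed over all passed probe sets. Of the 11 above background, 9 passed (24.1% of such probe sets) and 9 had number 3 highest (26.3%). Myh11 had means of 7.18, 6.85 and 9.13 in numbers 1 to 3 and Actg2 7.92, 8.48 and 10.45. Lowest in number 3 were Dcn (11.10, 11.26 and 10.56), with the same order of numbers as Nt5e and Cd44, and Lum (6.65, 5.95 and 5.52). Lum was above background on 4 arrays. The summed linear signal of the list, Pdgfra, Pdgfrb and Thy1 included, was 23894 and 23699 on the arrays of number 3 and 15095 to 16948 on the others. By group it ran from 16180 to 23894 in control and from 15095 to 23699 in MBP arrays. This sum weighs bright probe sets most, matrix genes such as Col1a1 included, so it is no measure of contractile cells alone. The part of these markers in the number differences of Nt5e, Cd44 and Thy1 was not tested. The same holds for the lower count of probe sets above background in number 3, whose arrays had the highest cutoffs.

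**Figure D4:**
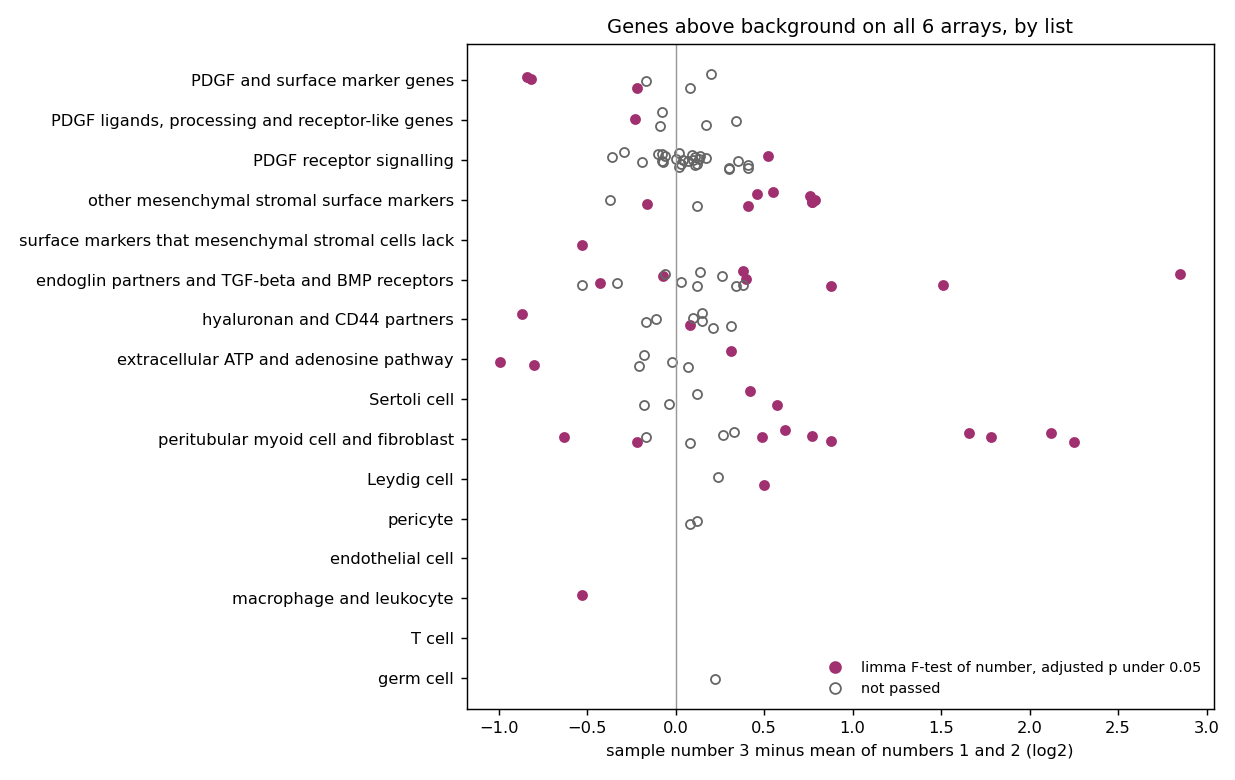
Sample number 3 minus the mean of numbers 1 and 2, averaged over both groups (x axis, log2), for each gene above background on all 6 arrays (points) by list (y axis; points are spread vertically for legibility, and a gene in several lists appears in each); filled points passed limma's F-test of the number. Nt5e and Cd44 lie at -0.82 and -0.84, on the other side of 0 from Myh11, Actg2 and most stromal surface markers that passed. Dcn of the myoid and fibroblast list, which also passed, lies on their side at -0.63.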

How the data were processed

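Values were the deposited log2 signals of the gene array's value table, 1 per probe set and array, normalized by the authors by a method not given in the sources used here. MAS5 is listed in the submitters' processing notes, its role unstated. The authors' annotated table supplied symbols, categories and Ensembl positions on Rnor_5.0. Its 6 signal columns match no sample label and were not used. Its annotation named 19812 of 27342 main probe sets with 1 symbol. List symbols were also matched through RefSeq names of GRCr8, taking a gene's probe set of highest mean.

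limma 3.58.1 (R 4.3.3; lmFit, eBayes) was fitted to all main probe sets, for MBP minus control and for the sample number (F-test with group in the fit), with Benjamini-Hochberg adjustment at 0.05. It was also run on simulated data with independent noise on each array, a simpler setting than these data. No result here rests on that run. Precision is limited by the number of arrays.

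Deviations from the group means correlated at 0.567, 0.603 and 0.779 for arrays of the same number and at -0.535 to 0.048 for others, so the numbers pair the samples, on the basis of the data alone. Members, lists and alternatives were chosen with earlier results of these data known. Named list genes are the 2 of smallest p in each test, with marker genes in list order. Pdgfd, Cd9, Cd34, Ptprc, Dcn, Lum and the absent Sertoli markers were named after their values were seen. Some genes that this rule names are not reported here.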

Additional observations from a re-analysis of the deposited data

How the results depend on the processing

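The MBP count stayed at 0 of 8 members and 0 of 127 list genes in limma under 13 alternatives, and at 0 of 6 and 0 of 76 among probe sets above background only. The 14 alternatives were the replicate block, each array left out, both arrays of a number left out with the block, quantile normalization, median centring, probe sets above background only and another variance model. Leaving out 1 array moved the log2 difference from -0.155 to 0.099 for Pdgfra, -0.177 to 0.023 for Pdgfrb, -0.060 to 0.076 for Pdgfa, -0.126 to 0.259 for Pdgfb, -0.188 to -0.074 for Pdgfc, -0.340 to 0.037 for Thy1, -0.281 to 0.276 for Cd44 and -0.175 to 0.373 for Nt5e. Such fits hold unequal numbers in the groups. The sign also turned for Pdgfra under quantile normalization (0.005), for Pdgfa (-0.012) and Cd44 (-0.013) under median centring, for Pdgfa with the block without number 1 (-0.010), and with the block without number 3 for Pdgfra (0.010), Pdgfb (-0.055) and Cd44 (-0.018). With the replicate block the differences of all 8 members equal those without it, and no call changed. The number test called 4 members, 5 after quantile normalization, median centring or without the group term, 6 with the other variance model and 6 of 6 above background alone, where 63.9% of probe sets were called. It called 0 with any 1 array left out (0 to 0) or when number 1, 2 or 3 was dropped in both groups. The alternatives that drop arrays from the number test were chosen after seeing the data. Members above background on all arrays numbered 6, 7 at the 90th, 1 (Nt5e) at the 99th percentile of the intron controls and 6 against antigenomic controls. Signal over background limits Pdgfb and Pdgfc.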
